A study of Mus musculus with 6 samples.

Results

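The intronic circRNAs of mouse lung are the rows of the deposited circRNA table that carry the type label intronic, 344 of the 3696 circRNAs listed (9.31%). CircRNAs are rings of RNA made when a downstream splice site joins an upstream one, and junction reads are the sequencing reads that cross this join. The intronic ones held 1358 of 20983 junction reads (6.47%), and each listed circRNA had at least 2 reads over all libraries. The study compared the lungs of male C57BL/6 mice, 8 to 10 weeks old, in 2 groups. In the primary blast lung injury (PBLI) group the chest was exposed to a shock wave of 0.5 bar under anesthesia, and the Control mice were anesthetized without a blast. The right upper lobe was taken 6 h later. There were 3 libraries per group, each pooled from 2 mice, so a library stands for a pool and not for an animal.

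Circular RNA from introns can arise in several known ways. An excised intron first forms a lariat, whose ring is closed at the branch point near its 3′ end, and some lariats escape the debranching enzyme Dbr1 and persist as circles. Whole introns can also circularise end to end, and a back-splice between cryptic splice sites can close a ring within an intron. Circles retained in the nucleus have been linked to transcription of their host genes in human cells. The label intronic in the table says only where the ring lay relative to a chosen transcript, so its members were examined individually.

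The members that carried most reads and those that illustrate each kind of junction are shown here with their genome sequence. Positions are mm10, and sequences come from the RefSeq copy of that assembly (GRCm38.p6), written 5′ to 3′ on the labelled strand. For ring ends, 20 bases outside and 10 bases inside the circle are given, and capitals mark the 2 bases next to the circle. Tulp4 (chr17:6137211-6139156, plus strand, 1946 bp) had the most reads. Ptprm (chr17:67287391-67287932, minus strand, 542 bp) lay inside an intron. Zfp68 (chr5:138616566-138617054, minus strand, 489 bp) covered an annotated intron exactly, but also lay wholly in an exon of another transcript. Calcrl (chr2:84370758-84372968, minus strand, 2211 bp) had its splice dinucleotides on the other strand.
Tulp4, 5′ end: tttttgtcgttgttttacAGagttgtaaga
Tulp4, 3′ end: caacagtgagGTgagttctactctgtttgc
Ptprm, 5′ end: gcctagagaggccagaatAGgctactggat
Ptprm, 3′ end: tccaataattGTtattggatccagaggatc
Zfp68, 5′ end: tctgcctcttcaaccatcAGgtaagtgcac
Zfp68, 3′ end: tactctggagGTctaggtggctgtgctgta
Calcrl, 5′ end: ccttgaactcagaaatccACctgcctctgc
Calcrl, 3′ end: actgagaagcCTtccttagccgggcgtggt

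Whole circles are given for 3 short members, with the first and last 10 bases, which meet at the closing junction, in capitals. They are the Ahnak circle with most reads (chr19:9006380-9006580, plus strand, 201 bp, inside the large coding exon), the Inmt circle (chr6:55174031-55174259, minus strand, 229 bp, inside an intron) and a whole intron of Hspa5 (chr2:34774773-34775065, plus strand, 293 bp).
Ahnak: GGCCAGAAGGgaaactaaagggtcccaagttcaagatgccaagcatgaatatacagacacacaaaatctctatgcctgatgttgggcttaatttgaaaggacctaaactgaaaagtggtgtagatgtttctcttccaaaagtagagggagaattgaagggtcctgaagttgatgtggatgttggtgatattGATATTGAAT
Inmt: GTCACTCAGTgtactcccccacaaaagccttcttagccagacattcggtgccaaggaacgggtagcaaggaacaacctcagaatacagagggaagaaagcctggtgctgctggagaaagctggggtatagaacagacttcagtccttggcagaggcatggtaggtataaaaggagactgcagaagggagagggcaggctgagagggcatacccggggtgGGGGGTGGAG
Hspa5: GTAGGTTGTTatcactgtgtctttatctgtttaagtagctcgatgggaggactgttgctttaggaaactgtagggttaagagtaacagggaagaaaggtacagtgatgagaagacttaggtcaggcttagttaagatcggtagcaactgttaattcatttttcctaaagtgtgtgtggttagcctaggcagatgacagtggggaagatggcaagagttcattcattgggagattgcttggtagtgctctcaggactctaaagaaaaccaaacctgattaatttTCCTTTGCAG

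The libraries held 2513 to 3379 circRNA junction reads in the Control group and 3568 to 4733 in the PBLI group, and levels are given as reads per 1000 of these. The defining lung genes were present throughout, with the 8 lung markers summing to 27930 to 40497 FPKM (fragment counts scaled by transcript length and library depth) per library. The 8 neutrophil markers summed to 168 to 280 FPKM in the Control and 369 to 2261 FPKM in the PBLI libraries, and 1 of the 8 (Mmp8) passed the adjusted threshold. No neutrophil marker was at 0 in every library, but Ly6g was at 0 in all except PBLI G3 (1.37 FPKM). The 5 red cell precursor markers summed to 2877 to 5002 FPKM in the Control and 2449 to 3326 FPKM in the PBLI libraries, and the 5 heart muscle markers to 89.9 to 181 and 60.3 to 148 FPKM. The part of such cells in the circRNA results was not tested, and fewer cells of a type cannot be told apart from less RNA per cell in these bulk samples.

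The intronic circRNAs were mostly rare. There were 223 members with 2 reads (64.8%) and 71 with 3 reads, and 8 members with at least 10 reads held 489 reads, 36.0% of the total. A single circRNA of Tulp4, which encodes a tubby-like protein, held 21.1% of all intronic reads. Reads appeared in 1 library for 259 members and in all 6 for 5 members. Of the 344, 133 had reads only in Control libraries, 156 only in PBLI libraries and 55 in both, but 108 of the 133 and 115 of the 156 had 2 reads, so these counts describe detection and not regulation. None of those found only in Control had reads in all 3 Control libraries, while 2 of those found only in PBLI had reads in all 3 PBLI libraries. The PBLI libraries held more circRNA reads (mean 4106, beside 2888 in the Control), so these counts are not compared between groups. Of all circRNAs detected in a library, 5.89% ± 0.639 were intronic in the Control and 5.96% ± 0.712 in the PBLI group (SD, n = 3). A record in circBase or in an earlier publication was listed for 26 members, which held 513 reads, and 318 had none.

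Compared with the other types in the same libraries, the intronic circRNAs passed in 9 of 10 comparisons (5 measures, each against 2 types) by an exact paired sign-flip permutation test (two-sided, 6 libraries, for which the smallest possible p is 0.03125). Circles with an earlier record held 36.9% ± 4.41 (SD, n = 6) of intronic reads and 87.8% ± 1.17 of exonic reads (lower in 6 of 6 libraries, exact p = 0.03125, adjusted p = 0.0347 over 10 comparisons). In sense overlapping circRNAs, the table's next largest type, the share was 50.8% ± 5.76 (lower in 6 of 6 libraries, exact p = 0.03125, adjusted p = 0.0347). The Tulp4 circle, with 21.1% of all intronic reads, was among the recorded ones, so the intronic share rests largely on 1 circle. The comparison was not repeated without Tulp4, and the p covers only how alike the libraries were. Circles of at most 200 bp took 9.37% ± 2.10 of intronic, 3.26% ± 0.358 of exonic and 5.53% ± 1.44 of sense overlapping reads, higher in 6 of 6 libraries in both cases, with the same p. Circles over 2000 bp took 11.2% ± 1.69 of intronic reads, more than the 3.69% ± 0.276 of exonic and less than the 62.6% ± 3.77 of sense overlapping reads, again in 6 of 6 libraries. The Tulp4 circle lay just under this length, so the size of the intronic share depends on where the limit was set. The length in the table equals the genomic span for the intronic circRNAs, whereas an exonic circle's length leaves out its introns, so these length shares compare the values as deposited.

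A detected intronic circRNA had 2.74 ± 0.277 reads in a library. This exceeded the 2.22 ± 0.163 reads of sense overlapping circRNAs in 6 of 6 libraries (exact p = 0.03125, adjusted p = 0.0347), and the difference from the 2.56 ± 0.196 reads of exonic circRNAs, higher in 5 of 6 libraries, did not pass (exact p = 0.09375, adjusted p = 0.0938). Of the detected intronic circRNAs 19.7% ± 5.69 had 1 read, against 32.3% ± 4.02 of exonic and 26.7% ± 7.49 of sense overlapping ones. Both of these measures depend on the minimum of 2 reads in the list, since a circRNA seen in 1 library, as 259 of the 344 were, cannot have 1 read there. With a minimum of 3 reads the difference from exonic circRNAs in the share with 1 read was -2.01 points, so nothing is read from either measure, which make up 3 of the 9 comparisons that passed. Restricting the lists to circRNAs with at least 3 reads left every adjusted p of the 10 above 0.05, from 0.0625 upward, and leaving out any library did so because 5 pairs cannot give an exact p under 0.0625.

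The span of the intronic circRNAs ran from 150 to 57735 bp with a median of 372 bp, and 160 of the 344 lay above 200 and up to 500 bp. Their 265 named host genes each gave 1 member in 241 cases, 2 in 18 and at least 3 in 6, and 19 members had no host name. An exonic circRNA was listed for 91 of the 265 hosts (34.3%). The mRNA of the hosts had a median of 27.3 FPKM, beside 21.8 FPKM for the hosts of exonic circRNAs and 9.05 FPKM for all tested mRNAs. Of the tested host rows, 30.1% reached 50 FPKM, beside 16.7% of exonic hosts and 9.02% of all tested mRNAs.

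The label was checked against the GENCODE vM21 annotation of mm10, which holds 290 of the transcripts to which the table assigned the members. In all 290 cases both ends of the circle lay in introns of that transcript. Against all transcripts of the same strand the picture was different. Neither end was in an exon for 235 members (68.3%, 648 reads), 1 end was for 35 (90 reads), both were for 64 (291 reads), and both ends fell exactly on annotated exon boundaries for 10 (329 reads). These 10 were 2.91% of the members and 24.2% of the intronic reads. They included Tulp4, whose circle was 1 entire annotated exon, and circles of Sema3f, Zeb1, Phf3, Nebl, Tacc2, Stxbp6, Zfp644 and Eps8. No base of an annotated exon lay in 227 members, which held 630 reads and had a median span of 286 bp.

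**Figure D1:**
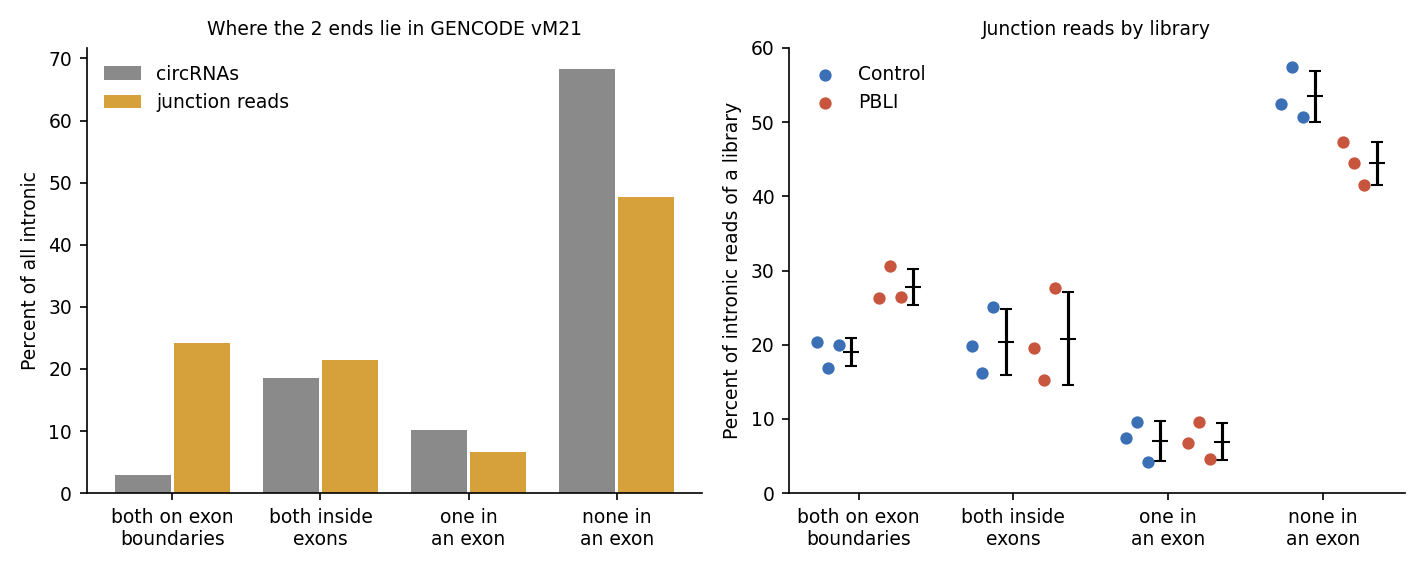
Left, percent of the 344 intronic circRNAs (grey) and of their 1358 junction reads (yellow) by where both ends lay among annotated exons. Right, percent of a library's intronic reads in each class, 1 point per library, with the mean and SD of 3 libraries. The circles on exon boundaries were few but took 19.1% of the intronic reads in Control and 27.8% in PBLI libraries.

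By library, the circles on exon boundaries took 1.19% ± 0.240 of all circRNA reads in the Control and 1.82% ± 0.0267 in the PBLI group (SD, n = 3), of which Tulp4 made up most. Those with no end in an exon took 3.29% ± 0.222 and 2.94% ± 0.354. The groups did not overlap in the former class and overlapped in the latter, and no test was made because these sums rest on the members.

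A lariat ring would start on the intron's first base and end at the branch point. Every listed intronic circRNA had AG and GT next to the circle on either strand, so rings without these letters are not in the list. The counts of ends that follow therefore cannot show how many lariats there were. The 5′ end was on the first base of an annotated intron in 9 members and the 3′ end on the last base in 8. In 7 members both held, so the circle was exactly a whole annotated intron. They came from Zfp68, which encodes a zinc finger protein, Hspa5, the endoplasmic reticulum chaperone BiP, Ncbp1, a cap-binding subunit, Hnrnpd, an AU-rich element binding protein, the transcription factor Elf1, the tight junction scaffold Tjp1 and Wdr7. Of their 22 reads, the Control libraries held 2, 2 and 1, while PBLI G3, G4 and G5 held 9, 3 and 5. These are raw reads, and the PBLI libraries held more circRNA reads. Zfp68 and Hspa5, without a read in the Control, held most of the PBLI reads, so no rise of whole introns as a class is read from them. All 7 introns were preceded by AG and followed by GT, as the ends of Zfp68 above show, a context held by 9.80% of 283876 annotated introns. Since such letters, on either strand, were shared by every listed intronic circRNA, nothing is read from this difference. Other transcripts had exons there, so that every base was exonic in some transcript for Zfp68 and Wdr7 and none for Ncbp1, Hnrnpd and Elf1. This set was picked out after its values were seen.

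The letters next to the circles differed in share between the types. Every listed circRNA of the types compared here had AG and GT on the labelled or the opposite strand, so only the strand could differ. The authors assigned the types from where the ends lay, so splice site letters at exonic ends come partly with the label. In the exonic circRNAs, all 2845 had AG before and GT after the circle on the labelled strand, as in ordinary splicing. In the intronic ones this held for 212, and the remaining 132 (38.4%, with 24% of the reads) had AC before and CT after it, which is AG and GT read on the opposite strand. Sense overlapping circRNAs lay in between, with 86 of 456 (18.9%) on the opposite strand. None of the 8 intronic circRNAs with at least 10 reads was of the opposite kind. The most read members that were came from an unnamed locus on chr13:28848289-28848812 (8 reads), Apbb3 and Sema3e (7 reads each) and Calcrl, the adrenomedullin and CGRP receptor (5 reads).

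Sequence beyond these dinucleotides was compared on the strand that carried AG and GT, with the exonic circRNAs as a reference for annotated splice sites. A 3′ splice site is normally preceded by a pyrimidine-rich tract and a 5′ splice site usually has G as the fifth base. Over the 16 bases that ended 4 bases before the circle, the median pyrimidine share was 50% for intronic, 62.5% for sense overlapping and 75% for exonic circRNAs. A share of at least 75% was found in 50 of 344 intronic (14.5%), 36.8% of sense overlapping and 69.0% of exonic circRNAs. G at the fifth base after the circle was found in 35.8%, 50.4% and 78.9%. Intronic circRNAs with at least 5 reads had a median pyrimidine share of 56.2% and G at the fifth base in 35.7%, and those with 2 reads had 50% and 34.5%. Exonic circRNAs with 2 reads had 75% and 78.6%.

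**Figure D2:**
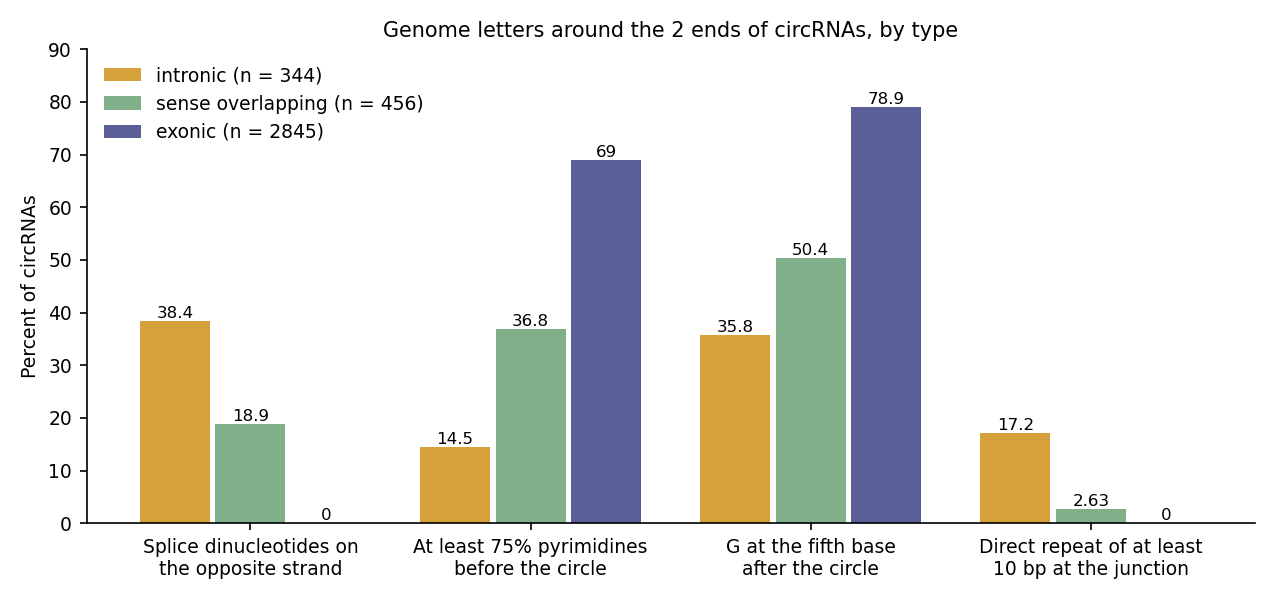
Percent of intronic, sense overlapping and exonic circRNAs with each of 4 features of the genome sequence at their ends. Intronic circRNAs led in opposite-strand dinucleotides (38.4%) and junction repeats (17.2%) and were lowest in pyrimidine-rich tracts (14.5%) and G at the fifth base (35.8%). The types were assigned from where the ends lay, so the contrast with exonic circRNAs comes partly with the label.

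The Tulp4 ends above had a pyrimidine share of 81.2% and GTGAG after the circle. The Ptprm circle, the third in reads, had 31.2% and no G at the fifth base, although it was detected in all 6 libraries and had a circBase record. Values for Inmt were 68.8% and no G, and for the 201 bp Ahnak circle 50% and no G. The well read members thus covered strong and weak splice site letters.

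Direct repeats were a second feature of the junctions. Where the bases at the circle's start are repeated after its end, the closing point cannot be placed within the repeat. Such a repeat was at least 10 bp long in 59 intronic circRNAs (17.2%), in 12 sense overlapping ones (2.63%) and in no exonic one, where the longest was 9 bp. The median was 4 bp for intronic and 2 bp for exonic circRNAs, and the longest was 63 bp in Lyst, the lysosomal trafficking regulator. The 59 held 12.7% ± 1.15 of intronic reads in the Control and 13.6% ± 3.66 in the PBLI libraries (SD, n = 3), and the groups overlapped. As examples, 2 circles are given with the repeat in capitals and 10 bases on either side: a 384 bp circle of Ahnak (chr19:9011812-9012195, repeat of 47 bp) and a 186 bp circle of Cbr2 (chr11:120731667-120731852, minus strand, repeat of 19 bp).
Ahnak, at the 5′ end: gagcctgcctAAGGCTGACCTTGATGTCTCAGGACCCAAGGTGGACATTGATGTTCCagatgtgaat
Ahnak, at the 3′ end: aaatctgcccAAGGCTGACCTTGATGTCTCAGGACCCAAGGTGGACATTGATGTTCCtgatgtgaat
Cbr2, at the 5′ end: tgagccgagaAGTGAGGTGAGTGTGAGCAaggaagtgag
Cbr2, at the 3′ end: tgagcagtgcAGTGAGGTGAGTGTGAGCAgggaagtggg

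Ahnak, which encodes a giant scaffold protein built from repeated units, gave 29 intronic circRNAs with 186 reads, and no circRNA of another type. All 29 lay within 1 coding exon (chr19:9001699-9018321 of the coding sequence, 16623 bp), so none of their bases was intronic in that transcript, and 28 overlapped another Ahnak circle. The most frequent span was 384 bp, shared by 7 of the 29 and by no other intronic circRNA. Spans were multiples of 3 in 26 of the 29, beside 104 of the other 315 (33.0%). When the exon was compared with itself at every offset from 150 to 800 bp, identity was highest at 384 bp (46.7% of bases, median over 651 offsets 24.9%). The next were 762, 378, 201, 222 and 363 bp. Among the 29 circles, 13 had 1 of these 6 offsets as their span, including the most read ones of 201 bp (71 reads) and 378 bp (27 reads). The number of offsets was not planned and ends at the last one that matched a span, while the next best span, 426 bp, ranked 30. No expected count was worked out, so the 13 is a description only.

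**Figure D3:**
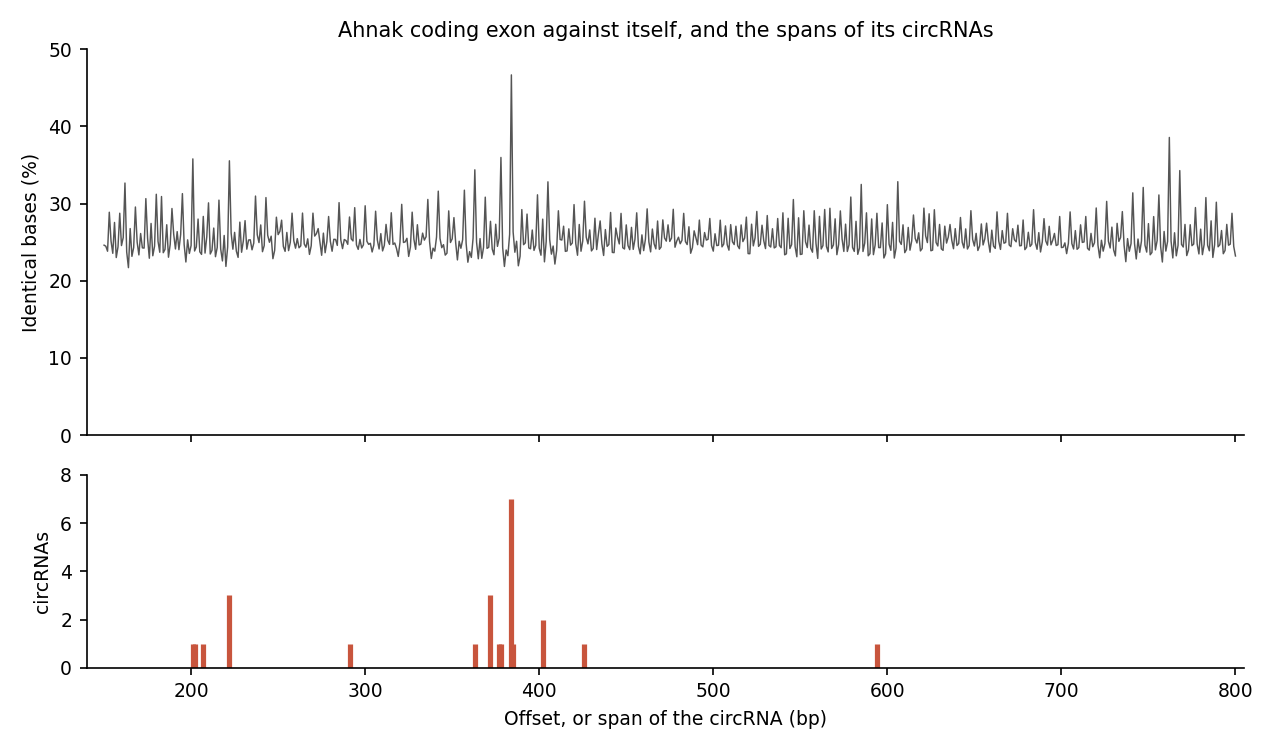
Top, percent of identical bases when the Ahnak coding exon is set against itself at each offset (bp). Bottom, number of Ahnak circRNAs of each span up to 800 bp. The highest peak of identity, at 384 bp, coincides with the span shared by 7 circRNAs.

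The ends of these circles were alike. Over 100 bases around each end, the 7 circles of 384 bp had 75% to 92% identical bases, the median of all Ahnak circles was 68.0%, and the medians of the other intronic and of the exonic circRNAs were 30.0% and 27%. Identity of at least 60% was found in 19 Ahnak circles, 24 other intronic circles and 0 exonic ones. A junction repeat of at least 10 bp was present in 10 Ahnak circles, and G at the fifth base in 2 of 29.

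Summed over the 29 members, the Control libraries had 23, 12 and 31 Ahnak reads, while those of PBLI had 37, 24 and 59. This was 7.42 ± 2.33 and 9.47 ± 2.88 reads per 1000 (SD, n = 3), and the groups overlapped. For the 201 bp circle, Control 1, 2 and 3 had 15, 1 and 7 reads, while PBLI G3, G4 and G5 had 14, 7 and 27. Its level ranged from 0.398 to 5.41 per 1000 among the Control libraries, a spread wider than the difference between groups (log2 fold change 0.76, approximate SE 0.42, edgeR adjusted p = 0.586). It passed the thresholds of fold and unadjusted p given below when Control 1 or PBLI G4 was left out, with log2 fold changes of 1.71 and 1.07. Ahnak mRNA was 408 ± 50.2 FPKM in the Control and 526 ± 168 in the PBLI group (limma adjusted p = 0.429), and PBLI G5 had the highest level of both the mRNA (720 FPKM) and the circRNAs.

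**Figure D4:**
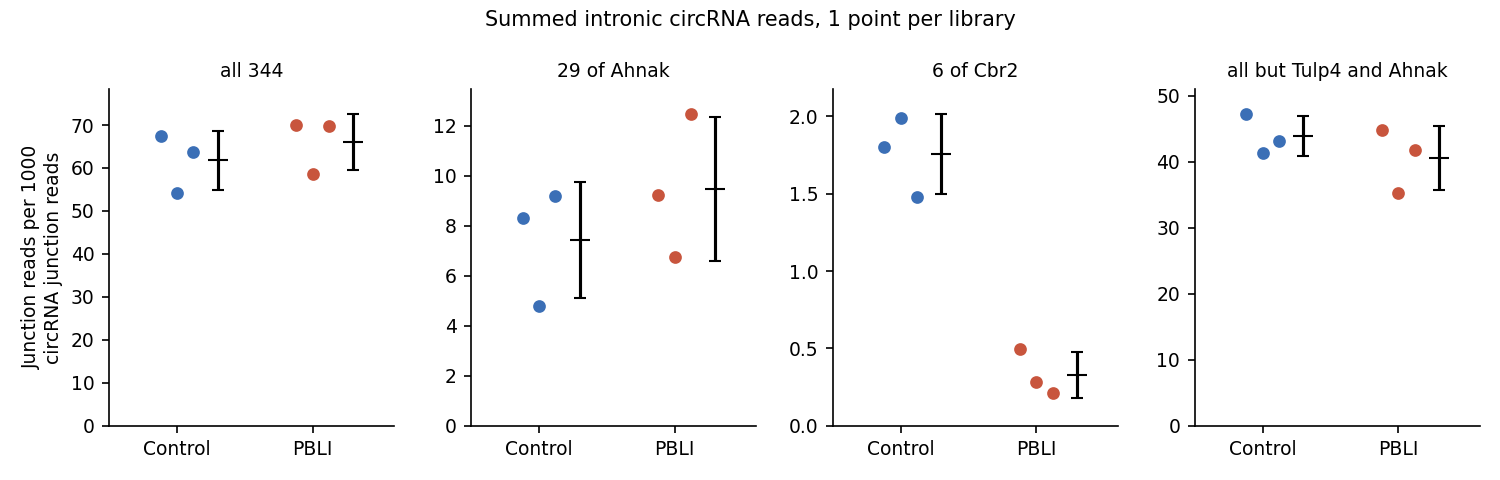
Junction reads per 1000 circRNA junction reads in each library, summed over all intronic circRNAs, those of Ahnak, those of Cbr2, and all but Tulp4 and Ahnak, with the mean and SD of 3 libraries. The groups overlap for all but Cbr2, which had 1.76 per 1000 in Control and 0.330 in PBLI libraries.

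Cbr2, a carbonyl reductase abundant in lung, gave 6 circles within 1 intron (chr11:120731513-120731852, minus strand), each overlapping others of the 6 and 4 of them with a junction repeat of at least 10 bp. Each Control library had 5 of their reads, while PBLI G3, G4 and G5 had 2, 1 and 1. The groups did not overlap at 1.76 ± 0.258 and 0.330 ± 0.150 reads per 1000 (SD, n = 3), and the ratio was 0.188 (95% interval 0.0453 to 0.589, counting error only). It rests on 19 reads, was noticed among 6 hosts after the values were seen, and was not tested. Cbr2 mRNA was 1242 ± 275 FPKM in the Control and 1075 ± 117 in the PBLI group (limma adjusted p = 0.609). Of the other hosts with several members, Slc25a36 (4 circles, 9 reads, all on the opposite strand), Zfp644 (3, 10 reads), Lyst (3, 8 reads) and Nfia (3, 7 reads) had too few reads to place the groups apart. Each of the Slc25a36 circles overlapped another of them, and all 3 of Lyst overlapped one another.

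For the comparison of PBLI with Control, all 3696 circRNAs were tested with edgeR's quasi-likelihood test. At a fold change of at least 2 and p of at most 0.05, 2 of the 344 intronic circRNAs (0.581%) were higher in the PBLI group, Inmt and Zfp68, beside 0.785% of all circRNAs. None was lower, beside 0.487% of all. At an adjusted p under 0.05 edgeR called 0 intronic and 0 of all circRNAs (0% of 3696), 3 intronic ones had an unadjusted p under 0.05 (Tulp4, Inmt and Zfp68) beside 1.3% of all circRNAs, and DESeq2 called 0. The lowest unadjusted p that any circRNA with 2 or 3 reads reached was 0.16, so the 294 intronic members of that depth could not have been called.

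For Tulp4, Control 1, 2 and 3 had 33, 20 and 38 reads, while PBLI G3, G4 and G5 had 64, 59 and 73. Per 1000 junction reads the Control levels were 11.9, 7.96 and 11.2, while those of PBLI were 15.9, 16.5 and 15.4. Every PBLI library was above every Control library. The ratio of pooled reads was 1.52 (95% interval 1.18 to 1.96, counting error only) and the log2 fold change 0.85 (approximate SE 0.30, edgeR adjusted p = 0.586). Its unadjusted p, under 0.05 with all libraries, exceeded 0.05 when any of the 6 was left out and with DESeq2. With the table limited to the 435 circRNAs of at least 10 reads its adjusted p was 0.0360, and over all the settings tried it ran from 0.0360 to 0.910. The Control libraries had TMM scaling factors of 0.976 to 1.22 and the PBLI libraries of 0.908 to 0.925. With library totals in place of TMM, the median log2 fold change of all circRNAs moved from 0.56 to 0.37 and that of Tulp4 to 0.61. Tulp4 mRNA was 71.4 ± 4.81 FPKM in the Control and 72.5 ± 3.79 in the PBLI group (log2 difference 0.02, limma adjusted p = 0.907).

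**Figure D5:**
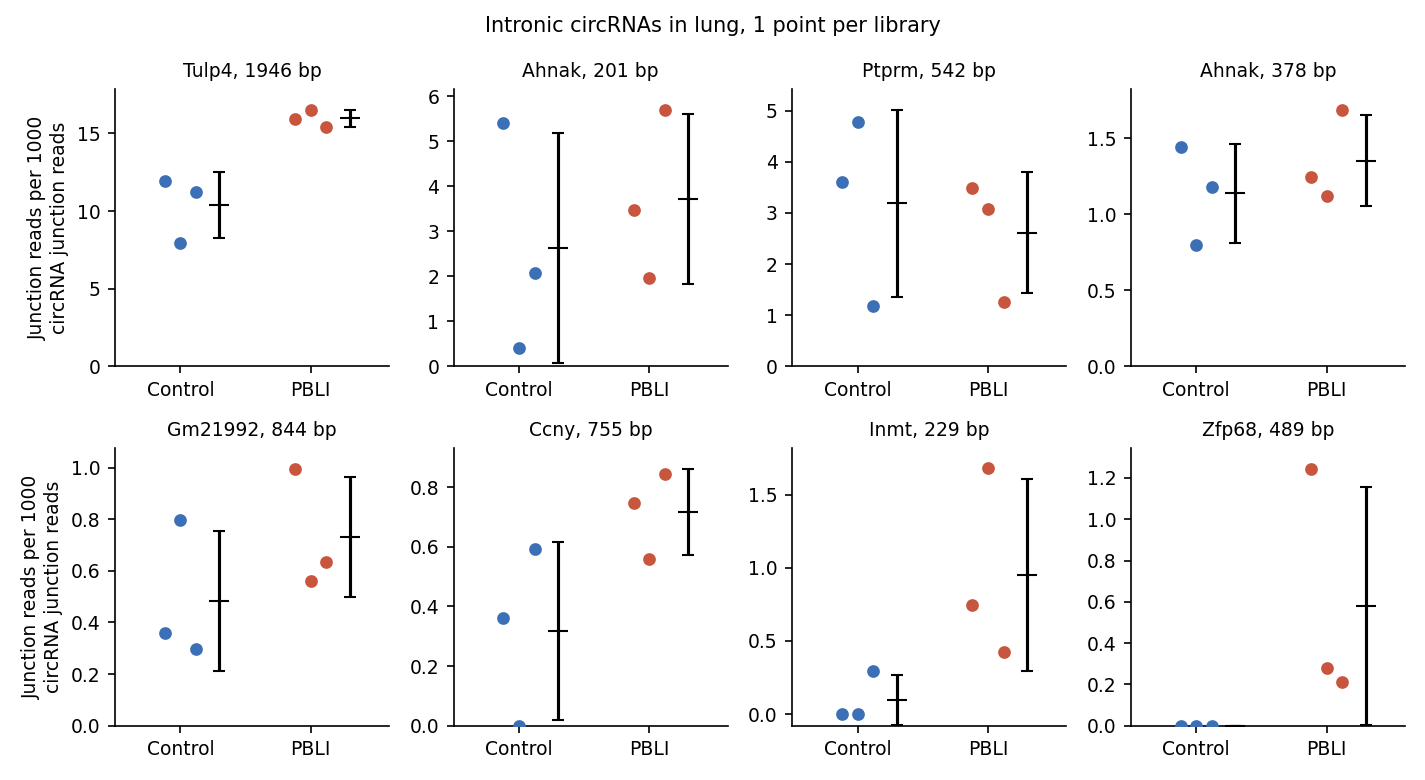
Junction reads per 1000 circRNA junction reads of 8 intronic circRNAs, named by host gene and span, 1 point per library, with the mean and SD of 3 libraries. The PBLI libraries lay above all Control libraries for Tulp4, Inmt and Zfp68, and the groups overlapped for the other 5.

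Inmt encodes indolethylamine N-methyltransferase, abundant in lung. Its circle had 1 read in Control 3 and none in Control 1 and 2, while PBLI G3, G4 and G5 had 3, 6 and 2. The levels were 0.0986 ± 0.171 and 0.950 ± 0.654 per 1000 (SD, n = 3). The ratio of 7.74 had a 95% interval of 1.12 to 333 (log2 fold change 2.87, approximate SE 1.30, edgeR adjusted p = 0.586). Inmt mRNA was 502 ± 167 and 551 ± 193 FPKM (limma adjusted p = 0.869). The Zfp68 whole-intron circle had no read in the Control and 5, 1 and 1 in the PBLI libraries. A count of 0 over the Control group allows up to 3 reads there. Set against that limit, with the PBLI reads taken as exact, the ratio was 1.64 (edgeR adjusted p = 0.586). This is not a lower bound, because the error of the PBLI reads, most of them from PBLI G3, is left out. Zfp68 mRNA was 23.4 ± 0.582 and 24.6 ± 2.98 FPKM (limma adjusted p = 0.784). At the fold and unadjusted p thresholds both calls were lost when Control 1, Control 2, PBLI G3 or PBLI G4 was left out, that of Zfp68 also without Control 3, and neither passed with DESeq2.

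Ptprm, the receptor tyrosine phosphatase of endothelial junctions, gave a circle for which the Control libraries had 10, 12 and 4 reads, while those of PBLI had 14, 11 and 6. The level was 3.19 ± 1.83 and 2.61 ± 1.18 per 1000 (log2 fold change 0.00, edgeR adjusted p = 0.995), with a 95% interval of the ratio of 0.482 to 1.47. Its mRNA fell, from 76.8 ± 7.10 to 44.1 ± 4.55 FPKM (log2 difference -0.80, SE 0.11, limma adjusted p = 0.0191). The 378 bp Ahnak circle had 1.14 ± 0.326 and 1.35 ± 0.299 per 1000 (edgeR adjusted p = 0.645). The circle of Gm21992, which also lies in Rbm4, had 0.484 ± 0.272 and 0.730 ± 0.233, and that of Ccny 0.318 ± 0.298 and 0.717 ± 0.145, with overlapping groups. The remaining members with 7 to 10 reads, from Sema3f, Myo5b, Fgfr2, Apbb3, Zeb1, Sema3e and the unnamed chr13 locus, had unadjusted p from 0.169 to 0.938.

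Of the members that were higher in PBLI, the next smallest p belonged to the Calcrl circle, with no read in the Control and 2, 3 and 0 in the PBLI libraries (edgeR adjusted p = 0.586). Hspa5's whole intron had no read in the Control and 2, 2 and 0 in the PBLI libraries. Of those that were lower, Epas1, a hypoxia-inducible factor, had 4 reads in Control 2 and none elsewhere (edgeR adjusted p = 0.586). Among the next were 6 members tied at 3 reads in Control 1 alone, from Cbr2, Car4, Plk1, Trp53bp2, Ralgapa2 and Adrbk2. Every PBLI library was above every Control library in 4 intronic circRNAs (Tulp4, Inmt, Zfp68 and Clpx), where all circRNAs gave 1.98%, and below in 1 (Cbr2, 153 bp), where all gave 1.43%. Clpx and this Cbr2 circle were singled out after their values were seen.

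Over all intronic circRNAs the share of junction reads was 6.75%, 5.41% and 6.36% in Control 1, 2 and 3, while PBLI G3, G4 and G5 had 6.99%, 5.86% and 6.97%. The means were 6.17% ± 0.687 and 6.61% ± 0.650 (SD, n = 3), and the groups overlapped. Without Tulp4 and Ahnak the share was 4.40% ± 0.301 in the Control and 4.06% ± 0.485 in the PBLI group. A library held 71.0 ± 15.5 intronic circRNAs in the Control and 92.0 ± 15.9 in the PBLI group, and 68.0 ± 11.9 and 75.8 ± 10.2 after each library was thinned to 2513 reads. Opposite-strand junctions made up 26.1% ± 3.94 and 22.6% ± 0.873 of intronic reads. The median log2 fold change was 0.85 over the 344 members, beside 0.56 over all circRNAs. It is not read as a rise of the type, since 294 members had 2 or 3 reads and it depends on scaling. With library totals the median over all circRNAs was 0.37. The median was 0.80 over the 8 members with at least 10 reads, beside 0.33 over the 435 circRNAs of that depth. All 8 were above 0 with TMM, but Ptprm, at 0.00, was below 0 with other scalings (-0.20 with relative log expression (RLE) scaling in edgeR, -0.26 with library totals).

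Host mRNA was tested with limma on log2(FPKM + 0.5), 256 rows of 255 host genes. At an adjusted p under 0.05, 6 hosts rose (2.34%), beside 1.15% of all mRNAs, and 2 fell (0.781%), beside 0.928%. Hspa5 rose from 143 ± 10.6 to 332 ± 31.0 FPKM (SD, n = 3; log2 difference 1.21, SE 0.10, adjusted p = 0.00473). Ern1, the IRE1 sensor of unfolded proteins in the endoplasmic reticulum, rose from 13.9 ± 0.328 to 21.01 ± 1.30 FPKM (adjusted p = 0.0321). The others that rose were Serinc3 (263 ± 24.5 to 443 ± 7.77 FPKM), the transcriptional co-regulator Sbno2 (8.30 ± 0.620 to 16.3 ± 1.55 FPKM), the guidance factor Sema3f (21.4 ± 0.735 to 32.6 ± 0.894 FPKM) and the exchange factor Kalrn (14.9 ± 1.25 to 25.8 ± 4.49 FPKM). Besides Ptprm, the sialyltransferase gene St6galnac3 fell from 14.5 ± 2.22 to 6.67 ± 0.859 FPKM. Leaving out Control 1, 2 or 3 left 1, 0 or 3 hosts that rose and 0, 0 or 3 that fell, and leaving out PBLI G3, G4 or G5 left 1, 2 or 10 that rose and 0, 2 or 3 that fell. The summed level of the neutrophil markers, given above, was higher in every PBLI than in every Control library, although only Mmp8 passed the adjusted threshold, and their part in these host changes was not tested.

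Genes known to act on intron lariats, on back-splicing and on circRNA export or decay were counted in the mRNA table. None passed an adjusted p of 0.05, 0 of 13 lariat and branch point genes, 0 of 17 rows of back-splicing regulators and 0 of 14 export and decay genes, and at an unadjusted p under 0.05 there were 0, 5 and 1, beside 19.2% of all mRNAs. Their median log2 differences were 0.04, -0.05 and 0.05, beside -0.02 over all mRNAs. Dbr1, which opens lariats, was 5.05 ± 0.392 in the Control and 5.55 ± 0.331 FPKM in the PBLI group (limma adjusted p = 0.652). Sf1, Sf3b1 and Dhx15, which recognise the branch point or take the spliceosome apart, had the highest levels of the first list and adjusted p from 0.284 to 0.955. Qk, the quaking protein that promotes back-splicing, was 160 ± 4.80 and 176 ± 21.8 FPKM (adjusted p = 0.532), and Srsf1 was 157 ± 7.26 and 152 ± 8.49 FPKM (adjusted p = 0.798). In the third list, Ddx39b, a helicase of circRNA export, had 72.9 ± 4.55 and 70.1 ± 9.26 FPKM (adjusted p = 0.789), Zfp36 had 46.9 ± 5.50 and 55.0 ± 7.76 FPKM (adjusted p = 0.379), and G3bp2 had 34.9 ± 1.25 and 31.8 ± 1.83 FPKM (adjusted p = 0.431).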

How the data were processed

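The authors trimmed reads of rRNA-depleted RNA with cutadapt (1.9.3), aligned them to mm10 with STAR (2.5.1b) and called circRNAs with DCC (0.4.4). The deposited circRNA columns used here hold raw junction-read counts that the authors had not scaled, and mRNA values are FPKM that the authors made with hisat2 (2.0.4) and cuffdiff (2.2.1). The deposited length of each circRNA (bp, other unit) and its type are the authors' annotation. A further 24 columns of values per library, of log-scaled circRNA counts, mRNA counts and lncRNAs, were not used here. The PBLI columns G3, G4 and G5 gave a group but no sample number. No library was a copy of another.

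CircRNA counts were tested with edgeR (4.0.16; TMM, quasi-likelihood) over 3696 circRNAs. The SE printed beside a log2 fold change was derived from its F statistic. FPKM were tested with limma (3.58.1) on log2(FPKM + 0.5) over 14760 genes with at least 0.5 FPKM in at least 1 library. P was adjusted by Benjamini and Hochberg's method, and a fold change is on the log2(FPKM + 0.5) scale. Types were compared within libraries by an exact sign-flip permutation test. Intervals of ratios are exact conditional binomial ones (95%) and, like the limit of 3 reads for a count of 0, cover counting error only. Positions used GENCODE vM21 (M21) and the RefSeq sequence of GRCm38.p6 (pysam 0.24.0). DESeq2 (1.42.0), R (4.3.3), Python (3.11.15), numpy (2.4.6), scipy (1.17.1) and pandas (2.3.3) were used. P-values measure the spread between libraries of 2 pooled mice.

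The tests were first tested on simulated data. For circRNAs, changes were planted only in those with at least 10 reads. There edgeR recovered 72.7% of 4-fold and 98.3% of 8-fold changes at the fold and unadjusted p thresholds. The simulation does not cover the members with fewer reads, which are most of them. The members named are the 15 with most reads, those past the thresholds, the 5 smallest p in each direction (ties kept), and hosts with at least 3 members. The host mRNAs named are those of the named circRNAs and those at an adjusted p under 0.05, and from each list of genes those called and the 3 with the highest FPKM. The members and lists were chosen with earlier results of these data known. Some items that this rule would name are not reported here.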

Additional observations from a re-analysis of the deposited data

How the results depend on the processing

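No paired analysis was possible because the PBLI columns carry no sample number that could be matched to the Control libraries. Inmt and Zfp68 remained the 2 intronic circRNAs higher in PBLI at the fold and p thresholds with library totals, RLE scaling in edgeR and edgeR's exact test. There was 1 left (Inmt) at a minimum of 10 reads, 0 with DESeq2 and 0 to 2 without 1 library each. The 1 call without Control 1 and without PBLI G4 was the 201 bp Ahnak circle, and that without Control 3 was Inmt. At an adjusted p under 0.05 the count of 0 became 1 (Tulp4) at a minimum of 10 reads, where fewer circRNAs were tested. That minimum also moved the intronic share, PBLI minus Control, from 0.434 to 1.49 percentage points (0.0534 to 0.809 without 1 library each). The Ahnak difference of 0.205 points of all circRNA reads (0.0552 to 0.342 without 1 library each) was 2.33 points when taken of intronic reads, which is another quantity. The difference in detected intronic circRNAs was 13.5 to 30.0 without 1 library each.

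At a minimum of 3 reads, intronic minus exonic became -2.01 points for circRNAs with 1 read, -38.1 for recorded reads, 2.98 for at most 200 bp and 4.73 for over 2000 bp. Intronic minus sense overlapping became 1.02 reads per circRNA, and -3.42, -12.5, 1.45 and -58.4 points in that order, with adjusted p of 0.0625 to 0.406. Without 1 library each, the differences from exonic circRNAs were -13.8 to -11.6, -51.8 to -49.0, 5.73 to 6.62 and 6.88 to 7.80 points. Those from sense overlapping ones were 0.468 to 0.579 reads, and -8.15 to -5.81, -15.5 to -11.0, 3.46 to 4.20 and -52.7 to -49.9 points. Leaving out Ahnak changed none of these calls, and Tulp4 was not left out of these comparisons.

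Without 1 library each, 0 to 10 host mRNAs were higher and 0 to 3 lower, and 0 to 1 gene of the circRNA machinery lists was lower. With quantile scaling the count was 1. The cause of these shifts was not tested, except that fewer samples or circRNAs entered the fit. Depth limits the members, since 294 of the 344 had 2 or 3 reads.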
